A study of Rattus norvegicus with 9 samples.

Results

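Cathepsins, lysosome-associated membrane proteins and subunits of the vacuolar proton pump were followed in the spleens of control rats, rats given thioacetamide (TAA, a liver toxin) and rats given TAA with celecoxib, an inhibitor of cyclooxygenase 2. The genes were all protein-coding entries named as a lysosomal cathepsin (Cts followed by a letter), as a V1 or V0 subunit of the pump (Atp6v1 or Atp6v0) or as Lamp1, Lamp2 or Lamp3. By name, 38 entries of the 34408 gene entries matched, and the 37 with at least 10 counts over all libraries were kept: 12 cathepsins, 3 LAMP genes, 8 V0 subunits, 13 V1 subunits and Atp6v1fnb. Atp6v1fnb is named as a neighbour of Atp6v1f and is not a pump subunit. The entry that fell below the minimum was Atp6v0d2, with 0 counts in all 9 libraries.

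RNA was sequenced from 9 spleen samples, 3 per group, all from rats labelled wild type. TAA rats received injections of 200 mg/kg every 3 days for 8 weeks and of 100 mg/kg for a further 8 weeks. TAA+celecoxib rats received the same TAA doses and 20 mg/kg of celecoxib per day for the last 8 weeks. Celecoxib was therefore given only on top of TAA, and no group received it alone. Nothing in the labels states that the samples are from separate animals, and the p-values therefore measure only the spread between these samples, which may be technical.

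Lysosomes are the acidic compartments in which cells break down proteins, lipids and sugars, and splenic macrophages use them to digest aged red blood cells and microbes. Cathepsins are the proteases inside them, LAMP proteins line their membrane, and the V-ATPase pumps protons into them: its V1 part in the cytosol hydrolyses ATP and its V0 part in the membrane carries the protons. Transcription factors of the MiT/TFE family, such as TFEB, are known to bind CLEAR elements, which hold the core CACGTG, in promoters of many lysosomal genes.

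Promoter windows from 250 bases before to 50 bases after the annotated start were available for 30 of the 37 genes, matched by symbol (RefSeq, build GRCr8). Ctsb, Ctsw, Atp6v0e2, Atp6v1b2, Atp6v1c1, Atp6v1h and Atp6v1fnb had none. The windows with a CACGTG are shown because CLEAR elements hold this core. Longer motifs around the core were also searched, and their matches are given below. They are written 5′ to 3′ on the gene's strand, with each CACGTG in capitals. Lamp1 is chr16:83075014-83075313 on the minus strand and Ctsd is chr1:206968772-206969071 on the minus strand, both whole. The other windows are cut to the bases around the core: Atp6v0d1 at chr19:50357278-50357317 on the minus strand, Atp6v0e1 at chr10:17007110-17007149 on the minus strand and Ctsf at chr1:211582003-211582042 on the plus strand.
Lamp1: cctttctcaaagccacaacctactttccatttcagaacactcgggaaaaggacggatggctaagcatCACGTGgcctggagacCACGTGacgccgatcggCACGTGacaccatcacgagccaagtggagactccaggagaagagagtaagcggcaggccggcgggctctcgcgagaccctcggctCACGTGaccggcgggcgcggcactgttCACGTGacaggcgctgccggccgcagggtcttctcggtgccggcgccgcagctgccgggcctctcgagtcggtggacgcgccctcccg
Ctsd: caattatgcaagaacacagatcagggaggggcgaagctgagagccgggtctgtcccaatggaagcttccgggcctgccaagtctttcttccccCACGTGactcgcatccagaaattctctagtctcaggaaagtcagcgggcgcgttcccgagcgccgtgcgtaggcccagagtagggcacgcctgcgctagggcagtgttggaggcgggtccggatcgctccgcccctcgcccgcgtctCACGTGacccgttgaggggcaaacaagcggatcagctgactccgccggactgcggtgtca
Atp6v0d1: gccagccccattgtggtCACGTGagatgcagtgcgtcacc
Atp6v0e1: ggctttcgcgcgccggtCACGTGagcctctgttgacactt
Ctsf: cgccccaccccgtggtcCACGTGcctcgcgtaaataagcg

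The Lamp1 window held 5 copies of CACGTG, beginning 183, 167, 150, 65 and 38 bases before the start, and the Ctsd window held 2, beginning 157 and 10 bases before it. The core began 52 bases before the start in Atp6v0d1, 149 before it in Ctsf and at base 25 of the transcript in Atp6v0e1. In all, 5 of the 30 windows (16.7%) held CACGTG, against 1826 of 27457 windows of the same length (6.65%). By family these were 2 of 10 cathepsins, 1 of 3 LAMP genes, 2 of 7 V0 subunits and 0 of 10 V1 subunits. TCACGTGA, which contains the core, was in 4 of the 30 (13.3%), namely Lamp1, Ctsd, Atp6v0d1 and Atp6v0e1, against 238 of all windows (0.867%). That sequence with a further G on its 5′ side and a C on its 3′ side was in 0 of the 30 and in 76 of all windows (0.277%). Each of these motifs is its own reverse complement, so a search of either strand gives the same matches, and no test was made of these shares. A match describes letters in the window and not the binding of a factor. Each gene was searched only at its listed start, and whether that start is used in spleen was not checked.

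Libraries held 14211789 to 19014761 counts, and the 37 genes took 0.461% to 0.710% of them. On the leading axis of a principal component analysis (31.3% of the variance), 2 libraries lay far from the rest: control 1 at -63.2 and TAA+celecoxib 1 at -60.3, with the other 7 between -1.73 and 50.1. Differences between libraries are given below in CPM, read counts brought to the same total for every library with TMM factors, and levels between genes in the deposited FPKM, which also divides by gene length. The summed CPM of 16 macrophage markers was 3348 in control 1 and 2673 in TAA+celecoxib 1, and 6054 to 10253 in the other 7. It was 3348 to 6727 in controls, 7480 to 10253 in TAA and 2673 to 6548 in TAA+celecoxib, so the TAA range lay above both others. In bulk tissue, fewer cells of a type and less RNA per cell cannot be told apart. Of 6 osteoclast markers, Dcstamp and Calcr were at 0 in all 9 libraries, and Acp5, Mmp9, Oscar and Ocstamp were detected in each. Liver transcripts were present in TAA 1, with 575 CPM of Alb, which encodes albumin, and in control 1, with 89.0 CPM. The other libraries had at most 0.70 CPM of Alb. A list of 6 pancreatic acinar markers summed to 80.6 CPM in TAA 2, against 5.67 to 20.6 in the other libraries. The strand setting of the counting is not given, so reads of overlapping genes may be shared: Ctsa overlaps Pltp on the opposite strand, and Atp6v1g2, with 24 counts in all, overlaps highly counted RT1-CE genes.

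Cathepsins had the highest levels per length. Ctsb, a cysteine protease with endo- and exopeptidase activity, led with 426 FPKM ± 89.2 (SD, n = 9; 302 to 557). Ctsz, a carboxypeptidase also called cathepsin X, followed with 361 ± 55.7 FPKM. Ctsa, a serine carboxypeptidase that also protects lysosomal glycosidases, was at 279 ± 55.4 FPKM, and Ctss, the protease of antigen-presenting cells that trims the invariant chain, at 269 ± 80.1 FPKM. The ranges of these 4 neighbours in the order overlapped. Below them came Ctsd, the main aspartic protease of lysosomes, at 162 FPKM, Ctsh, an aminopeptidase, at 149 FPKM, and Ctsc, which activates the serine proteases of cytotoxic and granulocytic granules, at 132 FPKM. Ctse, an aspartic protease of endosomes, was at 95.8 FPKM and Ctsl, an endopeptidase, at 78.7 FPKM. Ctsf was at 44.0 FPKM, and Ctsw, a cathepsin of T and NK cells, at 31.6 FPKM. Ctsk, the collagen-degrading protease of osteoclasts, was lowest of the 12 at 14.5 ± 4.32 FPKM. Cathepsin G and the placental cathepsins are outside the naming rule.

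**Figure D1:**
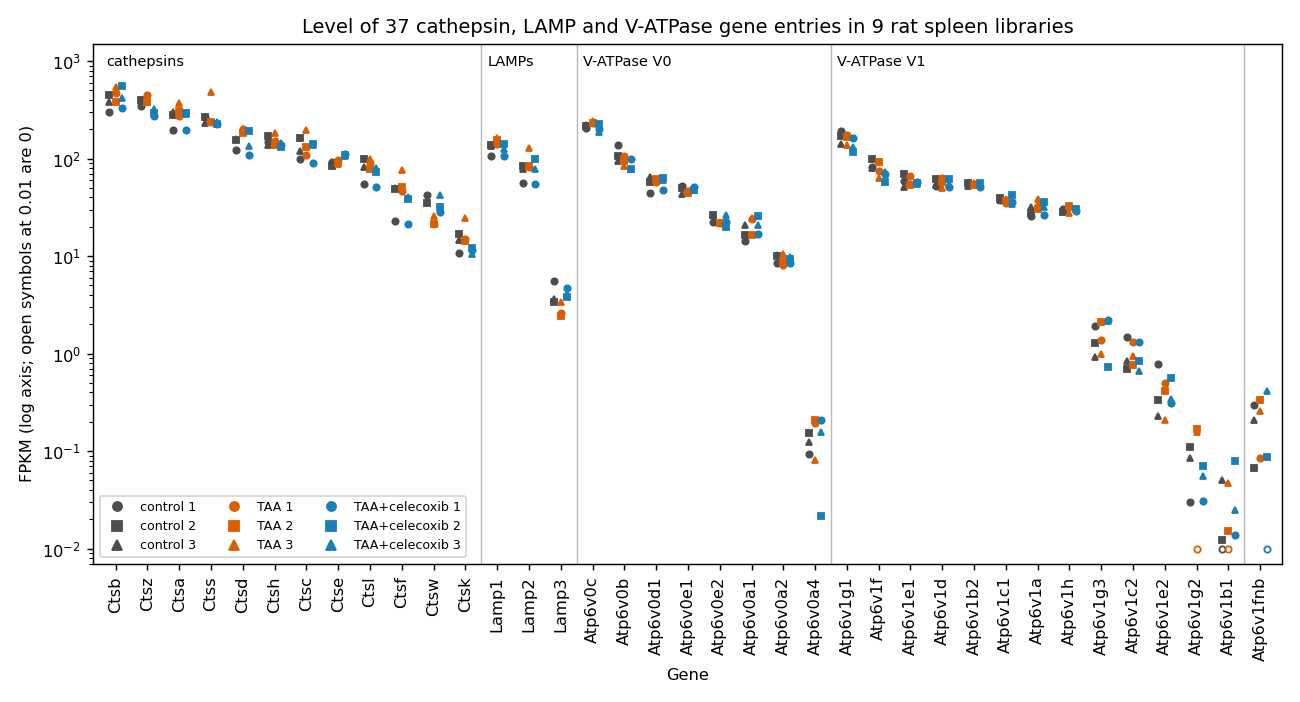
Level of each of the 37 gene entries in FPKM (logarithmic axis) in the 9 libraries, coloured by group. Genes are grouped by family and ordered by mean level within each family. Ctsb has the highest mean at 426 FPKM and Atp6v1b1 the lowest at 0.027 FPKM.

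Among the LAMP genes, Lamp1 and Lamp2 encode the main glycoproteins of the lysosomal membrane, and Lamp2 also serves chaperone-mediated autophagy. Lamp1 had a level of 134 ± 19.1 FPKM and Lamp2 one of 82.9 ± 22.0 FPKM. Lamp3, called DC-LAMP in human, where it marks mature dendritic cells, was far below them at 3.71 ± 0.964 FPKM.

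In the V0 part, Atp6v0c, which builds most of the proton-carrying ring, was highest at 219 ± 17.6 FPKM, and Atp6v0b, another ring subunit, was at 97.7 ± 18.7 FPKM. Atp6v0d1, the subunit that couples the ring to V1, was at 57.7 FPKM, and its isoform Atp6v0d2 had no count, which allows at most 0.0204 CPM over the sum of all 9 libraries (a limit of 3 counts that covers counting error only). In the V1 part, Atp6v1g1 of the peripheral stalk was highest at 155 ± 23.8 FPKM. The catalytic subunit A, Atp6v1a, was at 31.3 FPKM and the nucleotide-binding subunit B, Atp6v1b2, at 54.4 FPKM. Atp6v1f of the central stalk was at 77.0 FPKM, Atp6v1e1 at 58.0, Atp6v1d at 56.4, Atp6v1c1 at 37.5 and the regulatory subunit Atp6v1h at 30.0 FPKM.

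Where a pump subunit has several isoforms, 1 isoform held nearly all of the subunit's FPKM in V1. Atp6v1b2 made up 99.95% of subunit B, and Atp6v1b1, the isoform of kidney intercalated cells, 0.0494%. Atp6v1e1 made up 99.3% of subunit E, Atp6v1g1 98.98% of subunit G and Atp6v1c1 97.4% ± 0.840 of subunit C, with Atp6v1c2 at 2.58%. Atp6v1e2, Atp6v1g2 and Atp6v1g3 held the rest of E and G. The V0 part was more mixed. Subunit e was 67.2% ± 2.84 Atp6v0e1 and 32.8% ± 2.84 Atp6v0e2 over the 9 libraries. For subunit a, Tcirg1, which encodes a3 and does not carry the family name, held 49.99% ± 3.81, Atp6v0a1 33.9% ± 4.60, Atp6v0a2 15.9% ± 1.29 and Atp6v0a4 0.241% ± 0.120. The Atp6v0a1 share was 30.0% ± 3.68 in controls, 35.5% ± 4.47 in TAA and 36.1% ± 4.07 in TAA+celecoxib (SD, n = 3 each), and the groups' ranges overlapped. FPKM depends on the gene lengths the authors used, and so do these shares.

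**Figure D2:**
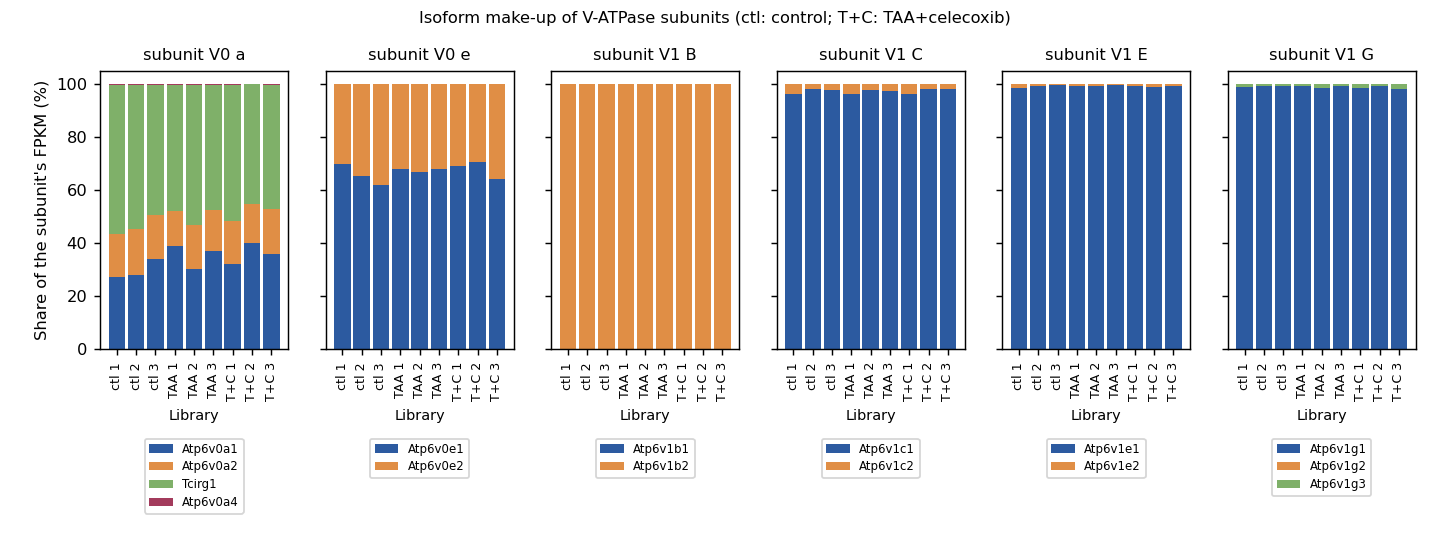
Share of each isoform in the summed FPKM of its pump subunit, in percent, for each of the 9 libraries (ctl, control; T+C, TAA+celecoxib). Atp6v1b2, Atp6v1c1, Atp6v1e1 and Atp6v1g1 fill nearly the whole of their bars, whereas subunits a and e of V0 are mixed in every library.

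The pump genes varied less between libraries than the cathepsins, a comparison of medians with no test. The coefficient of variation of CPM over the 9 libraries had a median of 20.4% among the 10 cathepsins with a mean of at least 50 CPM and of 8.69% among the 13 pump genes at that level, against 13.5% for all 4479 such genes. Atp6v1b2 ranged from 142 to 154 CPM, a ratio of highest to lowest of 1.08. Ctsf ranged from 41.3 to 142 CPM, a ratio of 3.43. TAA 3 was the highest library for 7 of the 12 cathepsins, and TAA+celecoxib 1 the lowest for 6 of them. TAA 3 also had the highest summed macrophage markers (10253 CPM) and neutrophil markers (2353 CPM, against 92.6 to 828 in the other libraries). The part of these cells in the variation was not tested.

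Summed over the 12 cathepsins, controls were at 2942, 3796 and 3473 CPM, TAA libraries at 3800, 3558 and 4588, and TAA+celecoxib libraries at 2820, 3745 and 3449. TAA 3 was highest and the groups overlapped. The 3 LAMP genes summed to 549, 715 and 681 CPM in controls, 722, 781 and 882 in TAA, and 551, 745 and 648 in TAA+celecoxib. The TAA libraries lay above all controls, by a narrow gap, and overlapped with TAA+celecoxib. The 21 pump genes summed to 1572, 1602 and 1529.7 CPM in controls, 1635, 1569.6 and 1582 in TAA, and 1497, 1546 and 1476 in TAA+celecoxib. All TAA+celecoxib libraries lay below all TAA libraries, by a narrow gap, and overlapped with the controls.

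**Figure D3:**
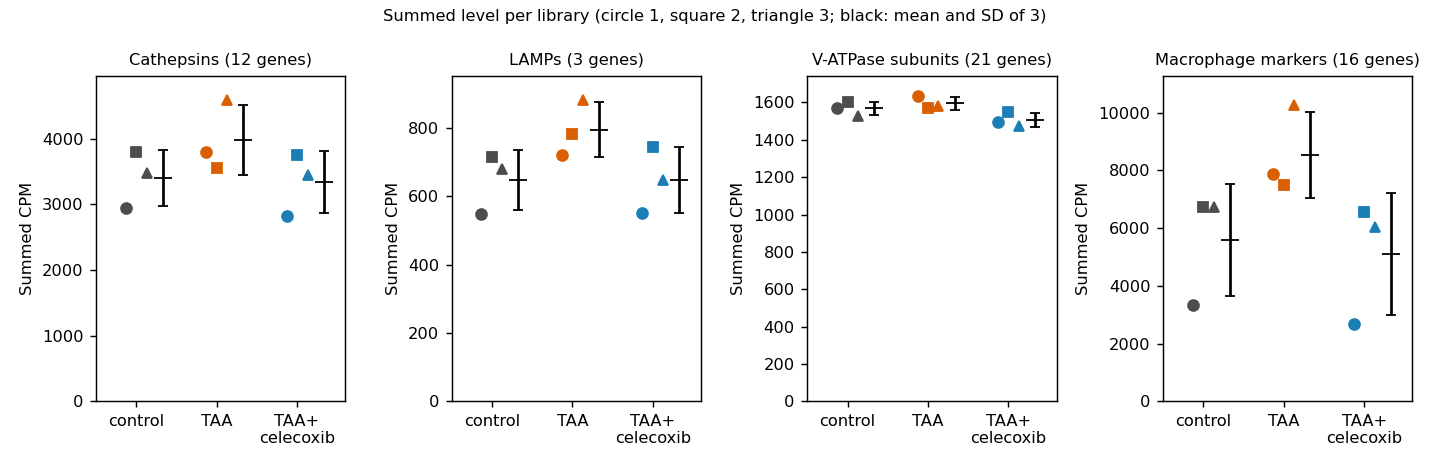
Summed CPM of the cathepsins, LAMP genes, pump genes and 16 macrophage markers in each library, by group, with the group mean and SD in black. Pump genes lie between 1476 and 1635 CPM throughout, and macrophage markers are lowest in TAA+celecoxib 1 (2673 CPM) and highest in TAA 3 (10253 CPM).

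TAA against control asks what TAA treatment does in the spleen. None of the 33 members that passed the filter on low counts was called, and neither was any other gene: edgeR's quasi-likelihood test with Benjamini-Hochberg adjustment called 0 of 15954 genes (0%). The 4 members below the filter were Atp6v1b1, Atp6v1e2, Atp6v1g2 and Atp6v1fnb. At an unadjusted p under 0.05 the test passed 1 member and 957 genes (6.0%). With DESeq2 53 genes but no member were called, and with limma-voom 0 genes. Of the 33, 23 had a higher and 10 a lower fitted value in TAA, and their median log2 fold change was 0.10 (0.0017 over all genes tested). The median was 0.23 for cathepsins, 11 of 12 higher, 0.27 for LAMP genes and 0.01 for pump genes, 10 higher and 8 lower. Macrophage markers were higher for 15 of 16, with a median of 0.66. Neutrophil and granulocyte precursor markers were higher for 10 of 10 tested, with a median of 2.27, and summed to 92.6 to 354 CPM in controls and 485 to 2353 in TAA. The part of either in the members' values was not tested. Without control 1 and TAA+celecoxib 1 the medians were 0.10 for cathepsins and 0.16 for LAMP genes. Without TAA 3 the cathepsin median was 0.09, and without control 1 or control 2 it was 0.12 or 0.36. The LAMP median was 0.17 without control 1, and the median of all 33 was 0.05 without control 1 or TAA 1 and 0.06 without control 3. The pump median changed sign with single libraries, from -0.05 without control 3 and -0.0059 without TAA 1 to 0.05 without control 2 and 0.04 without TAA 3.

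The 3 members whose TAA libraries all lay above the controls were Ctsd, Lamp1 and Atp6v0c (6.94% of all genes did so), and the 3 whose TAA libraries all lay below them were Ctsw, Lamp3 and Atp6v0e2 (7.89%). Ctsw was at 62.7, 51.3 and 52.4 CPM in controls and 31.7, 31.0 and 37.4 in TAA. All TAA libraries were below all controls, with a log2 fold change of -0.73 (SE 0.167, unadjusted p = 0.00180, adjusted p = 0.788 by edgeR's quasi-likelihood test). Over the alternative settings its adjusted p lay between 0.0527, with DESeq2, and 0.9996. T cell markers, which like Ctsw belong to lymphocytes, summed to 1068 to 1328 CPM in controls and 812 to 936 in TAA, with 11 of 13 lower. NK and cytotoxic markers summed to 356 to 363 CPM in controls and 253 to 331 in TAA, with 7 of 9 tested lower. Their part in the Ctsw difference was not tested.

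Ctsd was at 253, 318 and 318 CPM in controls and 412, 377 and 404 in TAA. The groups did not overlap, and the log2 fold change was 0.42 (SE 0.195, unadjusted p = 0.0577 by edgeR). TAA 1, the highest library in Ctsd, held liver transcripts, and so did control 1, the lowest control. TAA 2 and TAA 3 had 0.14 and 0.16 CPM of Alb, and TAA 2 had the highest sum of pancreatic acinar markers. The part of other tissue in the Ctsd values was not tested. Lamp1 was at 436, 560.3 and 536 CPM in controls and 570.4, 629 and 650.0 in TAA. The lowest TAA library was just above the highest control, and the log2 fold change was 0.27 (SE 0.144, unadjusted p = 0.0928 by edgeR), or 0.17 without control 1. Ctsd and Lamp1 are the members with more than 1 copy of CACGTG in the windows shown above. In those with 1 copy, Ctsf, Atp6v0d1 and Atp6v0e1, the groups overlapped, with log2 fold changes of 0.50, 0.10 and -0.08. Atp6v0c, whose TAA libraries also lay above the controls, had 0 copies. Whether the letters and the values are related was not tested.

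Lamp3 was at 11.03, 6.62 and 7.06 CPM in controls and 5.19, 4.79 and 6.58 in TAA. The groups came within 0.1 CPM of each other without overlapping, with a log2 fold change of -0.57 (SE 0.256, unadjusted p = 0.0518 by edgeR). Control 1 was the highest library, and without it the log2 fold change was -0.31. Dendritic cell markers summed to 239 to 259.7 CPM in controls and 181 to 232 in TAA, with 6 of 7 lower, and their part was not tested. Atp6v0c was at 244, 252 and 255 CPM in controls and 269.6, 270.2 and 281 in TAA, a log2 fold change of 0.13 (unadjusted p = 0.252 by edgeR). Atp6v0e2 was at 19.8, 22.7 and 22.6 CPM in controls and 19.04, 19.2 and 18.8 in TAA, a log2 fold change of -0.19 (unadjusted p = 0.221 by edgeR). In both pump genes the groups did not overlap, and the SEs were 0.104 and 0.145.

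TAA+celecoxib against TAA asks what celecoxib adds in rats given TAA. This comparison shares the TAA libraries with the one above, so a high or low TAA library enters both with opposite sign. edgeR called 0 of 33 members and 0 of 15954 genes (0%), DESeq2 called 25 genes but no member, and limma-voom called 0. At an unadjusted p under 0.05 there were 6 members of 33 among 812 genes (5.09%). In TAA+celecoxib 25 members had a lower and 8 a higher fitted value, with a median log2 fold change of -0.11 (0.007 over all genes tested). The median was -0.34 for cathepsins, 10 of 12 lower, -0.29 for LAMP genes and -0.03 for pump genes. Macrophage markers were lower for 16 of 16, with a median of -0.82, and neutrophil and granulocyte precursor markers for 10 of 10 tested, with a median of -1.08. Their part was not tested. Without TAA 3 the medians were -0.12 for cathepsins and -0.12 for LAMP genes, and without TAA+celecoxib 1 they were -0.20 and -0.17. The median of all 33 was -0.06 without TAA 3 and -0.18 without TAA 2, and the pump median was -0.01 without TAA+celecoxib 1 and -0.06 without TAA+celecoxib 2 or TAA 3.

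Members whose TAA+celecoxib libraries all lay below TAA were Ctsz, Ctsf, Ctsk, Lamp1 and Atp6v0c, 5 of 33 (5.03% of all genes). Those that all lay above were Ctse, Ctsw, Lamp3 and Atp6v0e1, 4 of 33 (5.87% of all genes). Ctsz was at 616, 520.3 and 532 CPM in TAA and 386, 400.0 and 435 in TAA+celecoxib. The groups were well apart, and the log2 fold change was -0.45 (SE 0.119, unadjusted p = 0.00451, adjusted p = 0.890 by edgeR). Over the alternatives its adjusted p lay between 0.0800, with DESeq2, and 0.9990.

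Ctsf was at 87.1, 95.9 and 142 CPM in TAA and 41.3, 72.3 and 75.9 in TAA+celecoxib. The groups did not overlap, and the log2 fold change was -0.78 (SE 0.340, unadjusted p = 0.0486 by edgeR). Ctsk was at 21.7, 20.2 and 34.7 CPM in TAA and 16.8, 17.04 and 15.1 in TAA+celecoxib. TAA 3 stood above the other TAA libraries, and the log2 fold change was -0.65 (SE 0.239, unadjusted p = 0.0246 by edgeR), or -0.36 without TAA 3 (unadjusted p = 0.113 by edgeR). The 4 tested osteoclast markers were all lower in TAA+celecoxib (median log2 fold change -0.996), and Dcstamp and Calcr were at 0 in every library. The list summed to 358.6 to 482.5 CPM in TAA and 284 to 359.7 in TAA+celecoxib, which overlapped. Acp5, at 280 to 406 CPM in these libraries, made up most of each sum and is also on the hydrolase list used below. Mmp9 is also on the neutrophil list. The part of osteoclasts was not tested. Lamp1 was at 443, 567.3 and 502 CPM in TAA+celecoxib, all below TAA. The highest of these was just below the lowest TAA library (570.4 CPM). The log2 fold change of Lamp1 was -0.29 (unadjusted p = 0.0748 by edgeR). Atp6v0c was at 240.5, 260.2 and 216 CPM, all below TAA, with a log2 fold change of -0.20 (unadjusted p = 0.0934 by edgeR), or -0.13 without TAA+celecoxib 3.

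Ctsw was at 42.5, 45.7 and 61.7 CPM in TAA+celecoxib. All of these were above TAA and the highest lay within the control range, with a log2 fold change of 0.58 (SE 0.166, unadjusted p = 0.00696, adjusted p = 0.890 by edgeR). T cell markers summed to 891 to 1272 CPM in TAA+celecoxib, which overlapped with TAA, with 11 of 13 higher. NK and cytotoxic markers summed to 306 to 387 CPM, which also overlapped with TAA, with 5 of 9 tested higher and 4 lower. The part of either list in the Ctsw difference was not tested. Lamp3 was at 9.43, 7.43 and 8.12 CPM, all above TAA, with a log2 fold change of 0.59 (SE 0.256, unadjusted p = 0.0466 by edgeR). Dendritic cell markers summed to 180.0 to 248 CPM, which overlapped with TAA. Ctse was at 218, 199.9 and 196 CPM in TAA and 252, 239 and 235 in TAA+celecoxib. The groups did not overlap, and the log2 fold change was 0.24 (SE 0.0989, unadjusted p = 0.0371 by edgeR). Erythroid markers varied widely within both groups, from 416 to 3677 CPM in TAA and from 540.1 to 4366 in TAA+celecoxib. Atp6v0e1, at 108, 105 and 109 CPM in TAA and 122, 110.4 and 111 in TAA+celecoxib, differed by a log2 fold change of 0.09 (SE 0.109), or 0.05 without TAA+celecoxib 1.

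**Figure D4:**
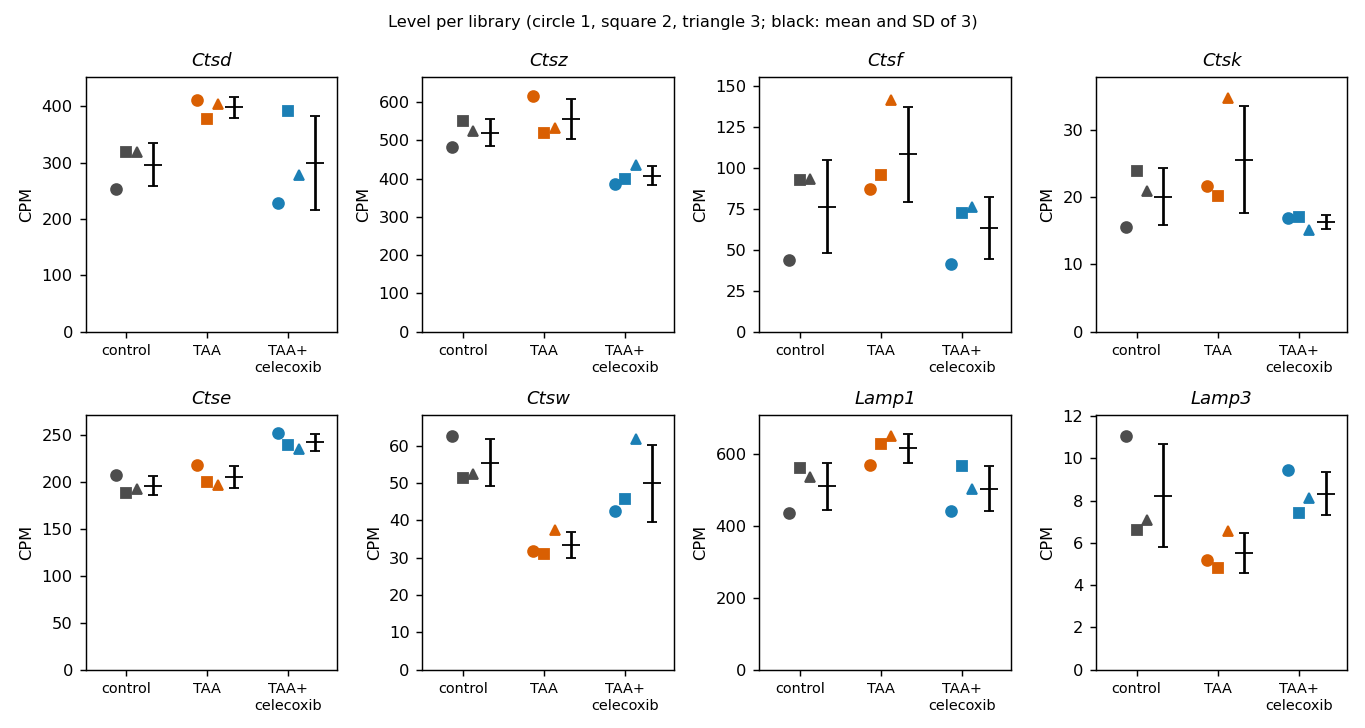
CPM of Ctsd, Ctsz, Ctsf, Ctsk, Ctse, Ctsw, Lamp1 and Lamp3 in each library by group (circle, square and triangle for libraries 1, 2 and 3), with the group mean and SD in black. Ctsw is lowest in the 3 TAA libraries (31.0 to 37.4 CPM), Ctsz is lowest in the 3 TAA+celecoxib libraries (386 to 435 CPM) and Ctse is highest in them (235 to 252 CPM).

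TAA+celecoxib against control shares its libraries with the comparisons above, and it sets treated rats beside untreated ones. edgeR called 0 of 33 members and 0 of 15954 genes (0%), DESeq2 27 genes but no member, and limma-voom 0. At an unadjusted p under 0.05 there were 2 members, Ctse and Ctsz, and 803 genes (5.03%). The fitted value was higher for 12 members and lower for 21, with a median log2 fold change of -0.02 (0.001 over all genes tested). The medians were -0.15 for cathepsins, 0.02 for LAMP genes and -0.02 for pump genes. These medians moved with single libraries: that of the 33 was 0.0016 without control 2, -0.09 without control 1 or TAA+celecoxib 2 and -0.05 without control 3. The cathepsin median was -0.04 without control 2 or TAA+celecoxib 1, and the LAMP median was -0.08 without control 1, -0.11 without TAA+celecoxib 2 and between 0.01 and 0.07 without any other library. The pump median was 0.01 without control 2, and between -0.06, without control 1, and -0.01, without TAA+celecoxib 3, with each of the others left out.

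Ctse was the only member whose TAA+celecoxib libraries all lay above the controls (5.27% of all genes did so). Controls were at 207, 188 and 193 CPM against 235 to 252, and the log2 fold change was 0.30 (SE 0.0989, unadjusted p = 0.0133, adjusted p = 0.911 by edgeR). Ctsz and Atp6v1f were the 2 that lay below (4.42% of all genes). Ctsz had 483, 551 and 525 CPM in controls, all above the 386 to 435 of TAA+celecoxib, with a log2 fold change of -0.35 (SE 0.119, unadjusted p = 0.0162, adjusted p = 0.911 by edgeR). Atp6v1f was at 54.0, 64.8 and 51.4 CPM in controls and 46.6, 36.8 and 47.7 in TAA+celecoxib, with a log2 fold change of -0.38 (SE 0.174, unadjusted p = 0.0591 by edgeR). Atp6v0b, whose groups overlapped, was at 142, 109 and 94.2 CPM in controls and 102, 78.6 and 79.9 in TAA+celecoxib. Without control 1 and TAA+celecoxib 1, 4 members lay above and 8 below, where 20.9% and 21.8% of all genes did with 2 libraries a group.

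**Figure D5:**
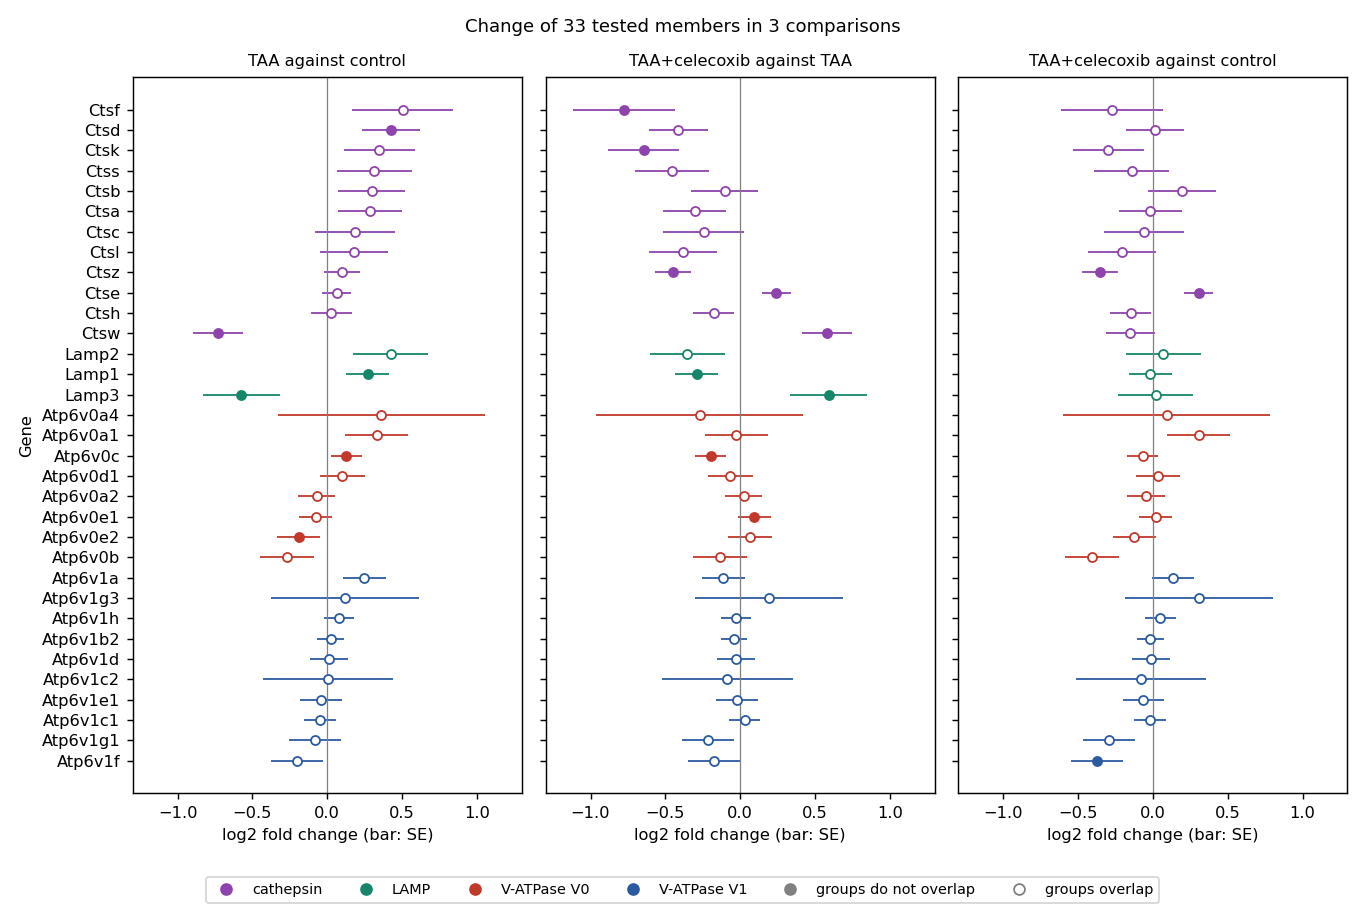
Log2 fold change of each of the 33 tested members in the 3 comparisons (points, bars are SE), with filled points where the groups' libraries did not overlap. The lowest value in the first comparison is Ctsw at -0.73, and in the second Ctsf at -0.78, and no member passed the adjusted threshold.

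Other lysosomal genes were read from lists of soluble hydrolases, membrane proteins, cathepsin inhibitors, sorting receptors, MiT/TFE regulators and pump assembly factors. Hydrolases and their cofactors were higher in TAA than in controls for 32 of 36 (median log2 fold change 0.19), with 0 at an unadjusted p under 0.05. In TAA+celecoxib 34 of 36 were lower than in TAA (median -0.17), with 2 at an unadjusted p under 0.05, among them Npc2. Against control 14 of 36 were higher in TAA+celecoxib (median -0.04), with 1 at an unadjusted p under 0.05. Npc2, which carries cholesterol out of lysosomes, was at 333, 396.5 and 377 CPM in controls, 440.3, 418 and 461 in TAA and 269.8, 319 and 340.3 in TAA+celecoxib. All TAA libraries were above all others, and TAA+celecoxib against TAA gave a log2 fold change of -0.51 (SE 0.127, unadjusted p = 0.00321, adjusted p = 0.890 by edgeR).

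Membrane proteins had a median of -0.02 in TAA against control and -0.09 in TAA+celecoxib against TAA, over 21 genes. Cd63, a tetraspanin of late endosomes, was at 259, 246 and 273 CPM in TAA and 152, 219 and 189 in TAA+celecoxib, with a log2 fold change of -0.48 (unadjusted p = 0.0352 by edgeR). Slc38a9, the arginine sensor of lysosomes, was at 23.3 to 25.1 CPM in controls and 17.2 to 20.6 in TAA, a log2 fold change of -0.35 (unadjusted p = 0.0200 by edgeR). These were the only genes of the 21 at an unadjusted p under 0.05 in any comparison.

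Among 7 tested inhibitors, Cst3, the secreted cysteine protease inhibitor cystatin C, was at 805, 835 and 802 CPM in controls, 545, 487 and 599 in TAA and 640.0, 446 and 657 in TAA+celecoxib. Controls were above all other libraries, and the log2 fold changes against control were -0.58 (SE 0.164, unadjusted p = 0.00639 by edgeR) with TAA and -0.49 (SE 0.164, unadjusted p = 0.0162) with TAA+celecoxib. Cstb, the cytosolic inhibitor stefin B, was at 101, 98.8 and 88.5 CPM in controls and 85.6, 63.5 and 72.6 in TAA+celecoxib, a log2 fold change of -0.38 (unadjusted p = 0.0151 by edgeR). The summed CPM of the list was 1245 to 1303 in controls and 902 to 1261 in TAA, which overlapped, and 925 to 1107 in TAA+celecoxib, below all controls. All adjusted p-values of these lists were at least 0.788.

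Of 10 sorting genes, M6pr, a receptor that delivers hydrolases to lysosomes, was at 10.3, 9.90 and 10.9 CPM in controls and 10.6, 45.0 and 13.6 in TAA+celecoxib. TAA+celecoxib 2 alone gave the high value, and the groups overlapped (log2 fold change 1.15, SE 0.472, unadjusted p = 0.0379 by edgeR). The 16 tested MiT/TFE factors and regulators had medians of 0.04, -0.09 and -0.03 in the 3 comparisons, in the order given above, with 0 at an unadjusted p under 0.05. Tfeb was at 87.01 to 99.9 CPM in controls, 65.9 to 95.6 in TAA and 58.0 to 97.0 in TAA+celecoxib, overlapping throughout. Tfec, a macrophage member of the family, ranged from 9.56 in control 1 to 43.3 in TAA 3. The 12 tested pump accessory and assembly genes had medians of 0.08, 0.05 and 0.10, with 0 at an unadjusted p under 0.05. Tcirg1 stayed between 75.4 and 88.7 CPM in all 9 libraries.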

How the data were processed

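RNA sequencing of 9 rat spleen samples was analysed in 3 groups of 3. The authors deposited whole-number read counts for each gene. The authors also deposited FPKM, in which counts are scaled by gene length and library. The tools and builds named are HISAT2 2.0.5 and mRatBN7.2, per the submitters' processing notes. Which tool counted the reads, and with which strand setting, is not given in the sources used here. Gene ends in the files reach 282724300 on chromosome 1, so their build is unresolved and gene coordinates are not printed from them.

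The counts were fitted over all 9 libraries by group with edgeR 4.0.16 in R 4.3.3 (quasi-likelihood, TMM, filterByExpr with minimum count 10 and total 15, which left 15954 genes). Tests were 2-sided and adjusted by Benjamini-Hochberg with a threshold of 0.05. The common biological coefficient of variation was 0.311. Alternatives used DESeq2 1.42.0, limma 3.58.1 (voom, and log2 FPKM with a pseudocount of 1 or 0.1), RLE size factors, no filter, the 2 groups alone, a replicate block and libraries left out. Only the edgeR fit by group, with TMM and no block, was tested on simulated counts.

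The members and the lists were chosen with earlier results of these data known. Named were all cathepsins, LAMP genes and pump isoforms, the 6 other members with the smallest p in each comparison, and up to 6 genes per list from the 3 with the smallest p in each comparison. Tfeb, Tcirg1 and the remaining pump subunits, given with their levels for their roles, were named outside this rule. Single-gene results for 2 of the hydrolases are not reported here. Fold changes are printed for members with an unadjusted p under 0.05 or groups that did not overlap. In TAA against control those of Ctsf, Atp6v0d1 and Atp6v0e1 are printed outside this rule, because their windows hold CACGTG.

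Replicate numbers are shared by the groups, but the labels state no pairing. The correlations of same-numbered libraries' deviations between control and TAA+celecoxib were 0.475, 0.178 and 0.337, all above 0.1. Control 3 and TAA+celecoxib 2, with different numbers, were also above it at 0.133, so this threshold does not identify pairs. The values led to an alternative fit of these 2 groups with the number as a block. The main fit used no block or pairing. Promoter windows are RefSeq sequences of build GRCr8.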

Additional observations from a re-analysis of the deposited data

How the results depend on the processing

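edgeR called 0 genes in each comparison, and DESeq2 called 53 in TAA against control, 25 in TAA+celecoxib against TAA and 27 in TAA+celecoxib against control. With only the 2 groups compared, 1 gene was called in TAA+celecoxib against control. With single libraries left out, the counts were 0 to 1, 0 to 3 and 0 to 2 in the same order, the 1 without TAA+celecoxib 2, and the 3 and 2 without TAA 1. The cause was not tested. No member was called under any of these settings, and the smallest adjusted p of a member was 0.0527, with DESeq2. The 327 recomputed log2 fold changes covered 18 pairs of member and comparison, all with groups that did not overlap. All 327 kept their direction. That selection made a change of direction unlikely beforehand, so no conclusion on stability is drawn from it.

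With the replicate number as a block, 0 genes were called in each comparison and 1475, 1287 and 1065 passed an unadjusted p of 0.05, where the fit without the block had 957, 812 and 803. The members that passed it with the block were 8, 9 and 4, against 1, 6 and 2. With only the control and TAA+celecoxib libraries and the block, an alternative chosen after seeing the data, 0 genes were called, and 5 members of 32 and 1545 genes of 15523 passed an unadjusted p of 0.05. The block changed no other call. Same-numbered libraries of control and TAA correlated at 0.240, -0.0214 and 0.189, and those of TAA and TAA+celecoxib at 0.120, -0.213 and 0.0331. For these comparisons no fit of the 2 groups alone with the block was made.

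Without control 1 and TAA+celecoxib 1, a count added after seeing the data, 12 members did not overlap between TAA+celecoxib and control, against 3 with all libraries, and fewer libraries make this easier for all genes. Without TAA 3, the medians of cathepsins and LAMP genes in TAA+celecoxib against TAA were -0.12 and -0.12 in place of -0.34 and -0.29. Depth limits the lowest genes: 4 of the 37 did not pass the filter, and 3 counts in a library equal 0.158 to 0.211 CPM.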
